A study of Homo sapiens with 6 samples.

Results

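The genes described here encode the subunits of the mitochondrial respiratory chain and of ATP synthase. They were taken from the expression table by symbol: the NDUF subunits of complex I, SDHA to SDHD of complex II, the UQCR genes and CYC1 of complex III, the nuclear COX subunits of complex IV, the ATP5 genes of complex V, and the protein-coding genes of the mitochondrial DNA. This gave 101 of the 18625 listed genes. Of these, 80 are nuclear subunit genes (37 of complex I, 4 of complex II, 9 of complex III, 12 of complex IV with NDUFA4 and COX7A2L counted there, and 18 of complex V), 13 are encoded by the mitochondrial DNA, 7 are processed pseudogenes and 1 is UQCRHL, an intronless copy of UQCRH. A mean of at least 10 normalized counts over the 6 libraries was reached by 98 of them.

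NB4 is a human acute promyelocytic leukemia line carrying the PML-RARA fusion. The cells were cultured for 3 days with DMSO, the solvent control, or with Tan I (tanshinone I, a diterpene quinone from the root of Salvia miltiorrhiza) at 10 μM, and 3 libraries per group were sequenced from total RNA. Whether the libraries came from separate cultures is not stated, so p-values measure the spread between these libraries only. All 6 come from a single cell line with no other treatment or genetic change named. The values are reads per gene divided by a size factor of the library, called normalized counts below.

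The respiratory chain passes electrons from NADH (complex I) and succinate (complex II) through ubiquinol and complex III to cytochrome c and on to oxygen at complex IV, and complex V makes ATP from the proton gradient that this builds. Complex II is wholly nuclear in origin, whereas the other complexes combine nuclear subunits, imported from the cytosol, with a small hydrophobic core made from mitochondrial DNA. The nuclear genes are transcribed singly from scattered loci, while the mitochondrial genes are cut out of long transcripts of either strand.

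Several neighbouring mitochondrial genes share bases, and the pairs below each lie on a single messenger RNA. They are shown because their read counts, given further on, did not run in parallel. In the GRCh38 mitochondrial sequence the end of MT-ATP8 and the start of MT-ATP6 share 46 bases (plus strand, chrM:8527-8572), which is 22.2% of the 207 bases of MT-ATP8. MT-ND4L and MT-ND4 share 7 bases, 2.36% of the 297 bases of MT-ND4L, shown in a stretch at chrM:10749-10777 of the plus strand. Capitals mark the shared bases.
MT-ATP8 and MT-ATP6: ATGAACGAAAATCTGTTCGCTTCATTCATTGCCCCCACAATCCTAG
MT-ND4L and MT-ND4: aacctactccaATGCTAAaactaatcgtc

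Nuclear respiratory promoters are known for sites of NRF1, of ETS factors such as GABPA, and of YY1. RefSeq windows of 300 bases on GRCh38.p14, 250 before and 50 after the start of the gene, could be matched to 64 of the 80 nuclear members. The letters GCGCATGCG (the NRF1 motif), on either strand, were in 10 of 64 windows (15.6%), against 3.86% of 10515 matched genes that passed the filter on low values and 2.10% of 27305 windows of all genes. The ETS letters CCGGAAG were in 19 windows (29.7%), against 19.0% and 10.7%, and the YY1 letters AAGATGGCG in 8 (12.5%), against 3.95% and 1.85%. In all, 30 windows held at least 1 of the 3 motifs, whose letters can overlap each other only at their ends. The median log2 fold change was 0.20 over the 10 members with the NRF1 letters and 0.17 over the 54 without them, 0.18 over the 19 with the ETS letters and 0.17 over the 45 without, and 0.14 over the 8 with the YY1 letters and 0.18 over the 56 without. Examples from members described below are given 5′ to 3′ on the strand of the gene, with the motif in capitals. They lie at chr11:112086753-112086781 (SDHD, plus strand), chr12:53676106-53676134 (ATP5MC2, minus strand, motif on the opposite strand), chr19:1605562-1605590 (UQCR11, minus strand), chr1:17054004-17054032 (SDHB, minus strand) and chr19:8321343-8321371 (NDUFA7, minus strand).
SDHD, NRF1: agctgtgtttGCGCATGCGcgacgggtgt
ATP5MC2, NRF1: gcccgggtcaCGCATGCGCtgagccttcc
UQCR11, ETS: tccaaccctcgCCGGAAGttactgtaagt
SDHB, YY1: gtcaggagccAAGATGGCGgcggtggtcg
NDUFA7, YY1: tcgcggacggAAGATGGCGtccgccaccc

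The 6 libraries held 21502760 to 31679138 reads on the listed genes. The first principal component over the 16887 genes tested carried 70.8% of the variance, with scores of -48.0, 41.1 and -26.7 in DMSO replicates 1 to 3 and -46.8, 8.65 and 71.6 in Tan I replicates 1 to 3. DMSO replicate 2 and Tan I replicate 3 stood at one end, and DMSO replicate 1 and Tan I replicate 1 at the other, so that the groups overlapped on it. On the second component, with 12.5% of the variance, they did not overlap, at -6.33, -36.1 and -1.46 in DMSO and 5.21, 22.0 and 16.7 in Tan I. The members are only 98 of the 16887 genes tested, so leaving them out could hardly move the scores on the first component. Without them these were 41.1 and 71.4 for DMSO replicate 2 and Tan I replicate 3. Of 7 promyelocyte genes, 6 were listed, with means of 1554 to 49595 normalized counts, and their summed level was 89531 to 96106 in DMSO and 64413 to 75751 in Tan I, without overlap. ELANE was not listed. The sum is weighted towards the most abundant of the 6, whose values are not given singly here. The extraction text of the labels speaks of embryos, although every sample is labelled as NB4 cells. Of 5 erythroid genes only ALAS2 was listed, at 15.4 to 51.3 in DMSO and 10.7 to 28.3 in Tan I. Summed T and B lymphoid genes were at 433 to 586 in DMSO and 451 to 699 in Tan I, CD14 and HLA-DRB1 together at 9.38 to 27.9 and 24.2 to 25.3, and the stromal and epithelial genes COL1A1 and EPCAM together at 246 to 296 and 243 to 333. Their part in the results below was not tested, and in bulk RNA a change in the makeup of the cells cannot be told apart from a change in RNA per cell.

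Tan I was compared with DMSO to find the messenger RNAs that differ after treatment, here those of the respiratory chain. The nuclear subunits sat slightly higher in the Tan I group, by a median log2 fold change of 0.17, with 78 of the 80 above 0, against 49.7% of all genes tested and a median of -0.00 over all genes. The mitochondrially encoded subunits had a median of 0.02, with 8 of 13 above 0, a direction that turned to a median of -0.04 after rescaling all libraries to the same total, -0.07 after quantile normalization and -0.03 in edgeR and DESeq2. No member passed the test. At an unadjusted limma p of at most 0.05 and a log2 fold change of 0.25 or more in either direction, 0 of 98 members were called, beside 2.42% of all genes (408 of 16887). With Benjamini-Hochberg adjustment over all genes, 0 of 98 members and 0% of all genes were called. At an unadjusted p of at most 0.05 alone the count was also 0 of 98, and edgeR and DESeq2 on the recovered reads likewise called 0 members, adjusted or not. Over all genes edgeR called 2.42% without adjustment and 0 with it, and DESeq2 2.49% and 16 genes.

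The spread between libraries of a group was larger than these differences. In 79 of the 80 nuclear members the range over the DMSO libraries exceeded the fold change on the log2 scale, and in 79 the range over the Tan I libraries did. Most genes showed the same, 14639 of 16887 for the DMSO range and 15378 for the Tan I range. The median range of a nuclear member was 0.51 in DMSO and 0.87 in Tan I, against 0.46 and 0.54 over all genes. The 95% confidence intervals of the fold changes of nuclear members ran between -1.42 and 1.05 at their widest and none excluded 0. Every Tan I library lay above every DMSO library in 1 of 98 members (NDUFS1), against 3.92% of all genes, and below in 1 (MT-ND5), against 3.97%. With 3 libraries in each group an exact two-sided permutation test cannot go under 0.1, the value it gave for both genes.

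The size of the small shift of the nuclear members depended on which libraries were included. Without Tan I replicate 3 their median was -0.03 and 32 of 80 were above 0. It was 0.05 without DMSO replicate 1, 0.30 without DMSO replicate 2 and 0.38 without Tan I replicate 1. It moved little without DMSO replicate 3 (0.16) or without Tan I replicate 2 (0.18). Without both DMSO replicate 2 and Tan I replicate 3, the highest on the first component, it was 0.09, with 72 of 80 above 0. The median over all genes was then -0.002. The mitochondrial median moved between -0.22 (without DMSO replicate 1) and 0.38 (without DMSO replicate 2), and was 0.22 and -0.19 without Tan I replicate 1 and 3, respectively. When limma was given the first component's scores as a covariate, the nuclear median was 0.04 and the mitochondrial median -0.20.

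**Figure D1:**
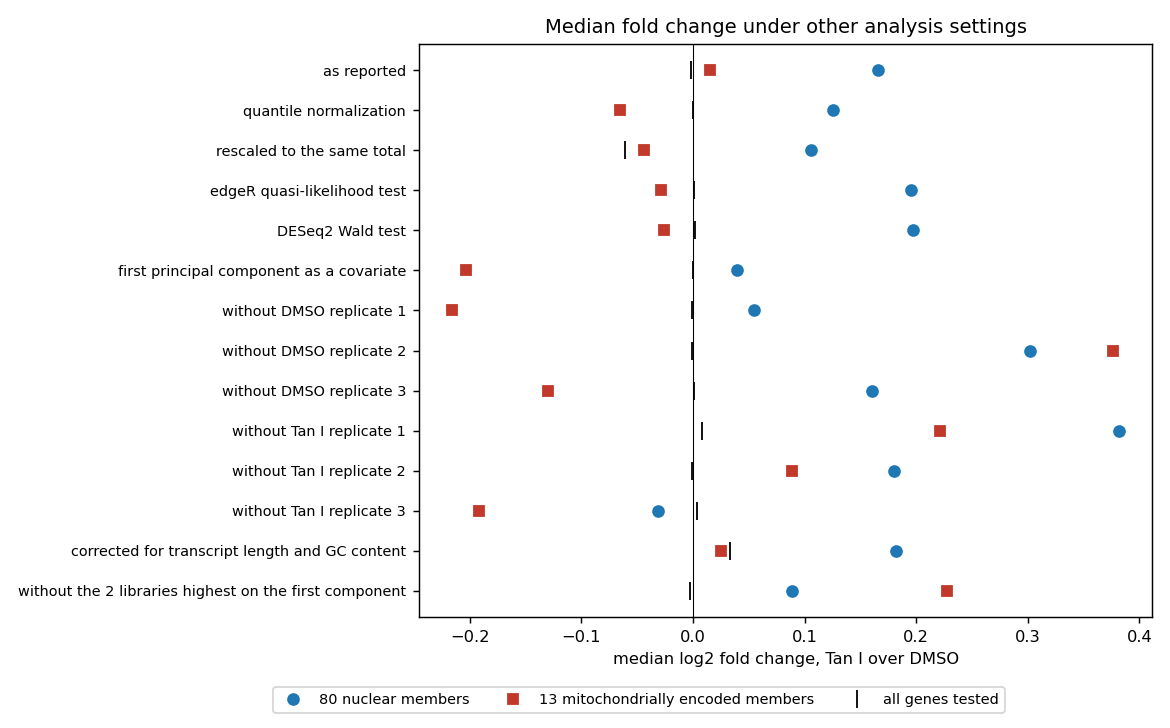
Median log2 difference between Tan I and DMSO (x axis) for the 80 nuclear members (blue circles), the 13 mitochondrially encoded members (red squares) and all genes tested (black ticks) under the main and other analysis settings (y axis). Settings of pseudocount, low-value filter, eBayes trend, replicate block and rescaling without mitochondrial genes are left out of the figure. The nuclear median is above 0 except without Tan I replicate 3 (-0.03), while the mitochondrial median falls on either side of 0, from -0.22 to 0.38.

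Across the 6 libraries the nuclear subunits moved as a block. The mean log2 level of the 80 nuclear members was 10.71, 11.14 and 10.89 in DMSO replicates 1 to 3 and 10.72, 11.06 and 11.46 in Tan I replicates 1 to 3. Tan I replicate 3 was the highest library for 73 of the 80, whereas this was so for 4966 of 16887 genes overall. The order of levels was replicate 2, 3, 1 in DMSO together with replicate 3, 2, 1 in Tan I in 67 of 80 (83.8%), against 23.6% of all genes. Related genes, listed further below, also had this order: 12 of 17 electron carriers and citric acid cycle enzymes (70.6%) and 27 of 46 assembly factors (58.7%). So did 9 of 13 mitochondrial members (69.2%), 13 of 30 genes that handle mitochondrial DNA and RNA (43.3%) and 1 of 8 regulators (12.5%). Tan I replicate 3 exceeded Tan I replicate 1 by a median of 0.87 on the log2 scale over the nuclear members, against 0.03 over all genes, while Tan I replicate 1 and DMSO replicate 1 differed by a median of only 0.02. The 78 positive fold changes are thus not separate measurements, since the members share the libraries and were high and low in the same ones.

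**Figure D2:**
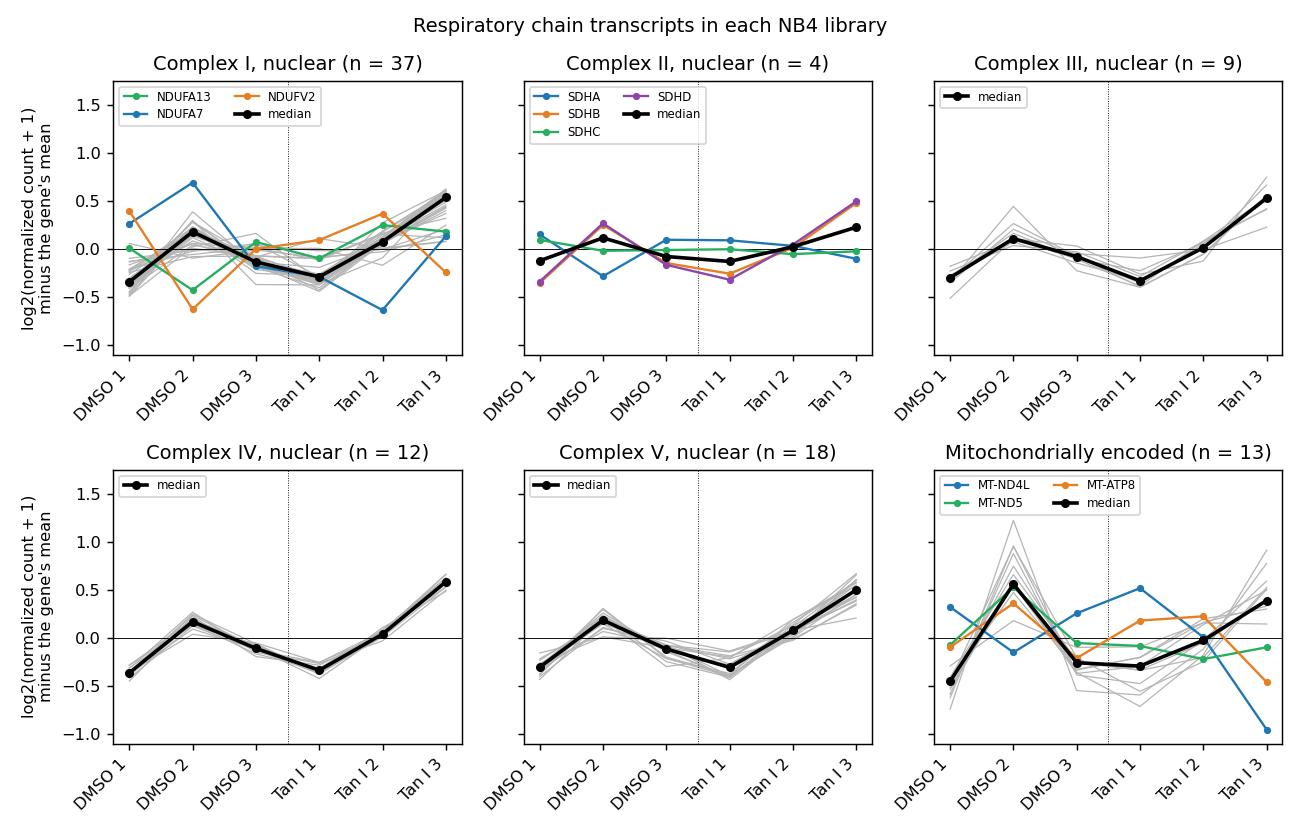
Each line joins the values of a gene in the 6 libraries (x axis) as log2(normalized count + 1) minus the gene's mean (y axis), in panels by complex and genome of origin, with the panel's median in black and named genes in colour. Replicates have no order, and lines only help to follow a gene. Complexes III, IV and V run in parallel with the highest values in Tan I replicate 3. In complex II, SDHB and SDHD follow them and SDHC stays nearly flat. SDHA, whose level is uncertain because of shared exons, is lowest in DMSO replicate 2. The mitochondrial genes peak in DMSO replicate 2 except for MT-ND4L.

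Transcript length differed among the members and ran weakly with this pattern. The median length of the canonical transcript was 760.5 bases over the nuclear members and 2588 over all genes tested. Across the 80 nuclear genes, which share the same 6 libraries and are not independent replicates, Spearman's rho between log2 length and the difference of Tan I replicate 3 from Tan I replicate 1 was -0.31, and between length and the fold change -0.36. Over 16825 tested genes the former was -0.28. The 47 nuclear members with transcripts under 1000 bases had a median log2 fold change of 0.19 and the 33 longer ones 0.14. The part of transcript length in the pattern was not tested beyond a correction of each library for length and GC content. With this correction the nuclear median was 0.18 beside 0.03 over all genes, against 0.17 beside -0.00 without it.

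Complex I oxidises NADH and pumps protons, with 7 nuclear and 7 mitochondrial core subunits and a shell of accessory subunits. The 37 nuclear members had a median log2 fold change of 0.19, with 36 above 0. The 7 core subunits had a median of 0.14 and the 30 accessory ones 0.20. NDUFS1, the core subunit with the most iron-sulphur clusters, measured 2075, 2291 and 2149 normalized counts in DMSO and 2457, 2293 and 2410 in Tan I (log2 fold change 0.14, SE 0.10). The Tan I libraries all lay above the DMSO libraries, with hardly a gap between the highest DMSO and the lowest Tan I value. NDUFB4, an accessory subunit of the membrane arm, had the lowest p of all members (log2 fold change 0.26, SE 0.14, limma unadjusted p 0.101), with 2953, 3312 and 3325 in DMSO and 3258, 3918 and 4363 in Tan I, so that a Tan I library lay below 2 of the DMSO libraries.

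NDUFC2, an accessory subunit of the membrane arm with the largest positive fold change of complex I, measured 175, 295 and 185 normalized counts in DMSO and 185, 290 and 365 in Tan I (0.34, SE 0.30). NDUFA7, an accessory subunit of the peripheral arm, was at 20.5, 27.9 and 14.8 in DMSO and 13.7, 10.5 and 18.7 in Tan I (-0.52, SE 0.38), the largest negative value of any nuclear member. The groups overlapped in both genes. NDUFA7 was counted at a very low level for a subunit of the complex, and 77.9% of its canonical exon bases also lie in exons of another gene record on the same strand. The same holds for 90.0% of NDUFV2 and 83.9% of NDUFA13, whose libraries did not follow the other members. NDUFV2, a core subunit of the module that binds NADH, measured 77.4, 37.6 and 58.6 in DMSO and 62.6, 75.9 and 49.3 in Tan I, and NDUFA13, also known as GRIM-19, 562, 415 and 588 against 522, 664 and 633. Shared exons also make up 72.0% of NDUFB8 and 68.2% of NDUFA11 in this complex and 63.8% of ATP5PO in complex V, whose highest library was Tan I replicate 3 as in most other members. How reads in shared exons were assigned is not stated, so the levels of all these genes are uncertain.

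Complex II, succinate dehydrogenase, links the citric acid cycle to the chain. Its 4 genes had log2 fold changes between -0.05 and 0.16 with a median of 0.09. SDHB, the iron-sulphur subunit, measured 2284, 3471 and 2637 normalized counts in DMSO and 2442, 2946 and 4062 in Tan I. SDHD, a membrane anchor, measured 1750, 2664 and 1975 against 1774, 2286 and 3121. Both followed the other nuclear members, with the highest value in Tan I replicate 3 and the lowest in DMSO replicate 1. SDHC, the partner anchor, stayed within 3346, 3094 and 3111 in DMSO and 3129, 3020 and 3082 in Tan I (-0.05, SE 0.10, 95% interval -0.28 to 0.19), and SDHA, the flavoprotein, was at 1235, 913 and 1188 against 1184, 1137 and 1036. SDHA was thus lowest in DMSO replicate 2, one of the libraries where SDHB and SDHD were high. Of the canonical exon bases of SDHA, 69.4% lie in exons of another gene record on the same strand, so its level is uncertain too.

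Complex III takes electrons from ubiquinol to cytochrome c. All 9 nuclear members were above 0, between 0.08 and 0.25, with none called. CYC1, cytochrome c1, measured 2511, 3021 and 2884 normalized counts in DMSO and 2413, 3114 and 3921 in Tan I, and UQCRFS1, the Rieske iron-sulphur protein, 1184, 2042 and 1283 against 1139, 1448 and 2214. Tan I replicate 1 was the lowest library of all 6 in both. UQCR11, a small accessory subunit, had the largest fold change of the complex (0.25, SE 0.32), from 81.1, 125 and 119 in DMSO to 96.8, 106 and 196 in Tan I, where a single library lay above the DMSO range. UQCRH, the hinge protein, measured 9013, 13474 and 10640 against 8523, 10777 and 16534, and its intronless copy UQCRHL 491, 836 and 642 against 504, 634 and 935. Reads mapping to several locations were removed, so reads that fit both copies may be missing from either count, and the levels of UQCRH and UQCRHL are uncertain.

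Complex IV, cytochrome c oxidase, reduces oxygen. The 12 nuclear members lay between 0.12 and 0.28 (median 0.17), and all had their highest value in Tan I replicate 3. NDUFA4, first assigned to complex I and now to complex IV, had the largest fold change (0.28, SE 0.24), with 3013, 4393 and 3692 normalized counts in DMSO and 3375, 4229 and 6157 in Tan I. COX4I1, a regulatory subunit, measured 11328, 17291 and 13959 against 11292, 14664 and 21024 (0.12, SE 0.26). COX7A2L, a factor for supercomplexes of complexes III and IV, measured 2193, 3295 and 2465 against 2276, 2678 and 3861 (0.13, SE 0.23). In each of the 3 genes the Tan I range enclosed or overlapped the DMSO range.

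Complex V, the ATP synthase, had 18 nuclear members, all above 0 (median 0.17). The 5 members of the F1 head had a median of 0.10, and the catalytic beta subunit ATP5F1B measured 26550, 29767 and 29551 normalized counts in DMSO and 26931, 31288 and 34174 in Tan I. The c ring that turns with the proton flow is built from a mature peptide that 3 genes encode alike. ATP5MC1 measured 899, 1396 and 987 in DMSO and 1051, 1387 and 1770 in Tan I, with the largest positive fold change of any nuclear member (0.35, SE 0.24, limma unadjusted p 0.175). ATP5MC2 was at 6093, 8663 and 7064 against 5990, 7847 and 10059 (0.11, SE 0.22), and ATP5MC3 at 4701, 6084 and 5509 against 5246, 6065 and 7641 (0.21, SE 0.17). The groups overlapped in all 3. ATP5IF1, which inhibits the synthase when it runs backwards, measured 3051, 3694 and 3411 against 3192, 4015 and 4906 (0.24, SE 0.17), with Tan I replicate 1 inside the DMSO range.

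**Figure D3:**
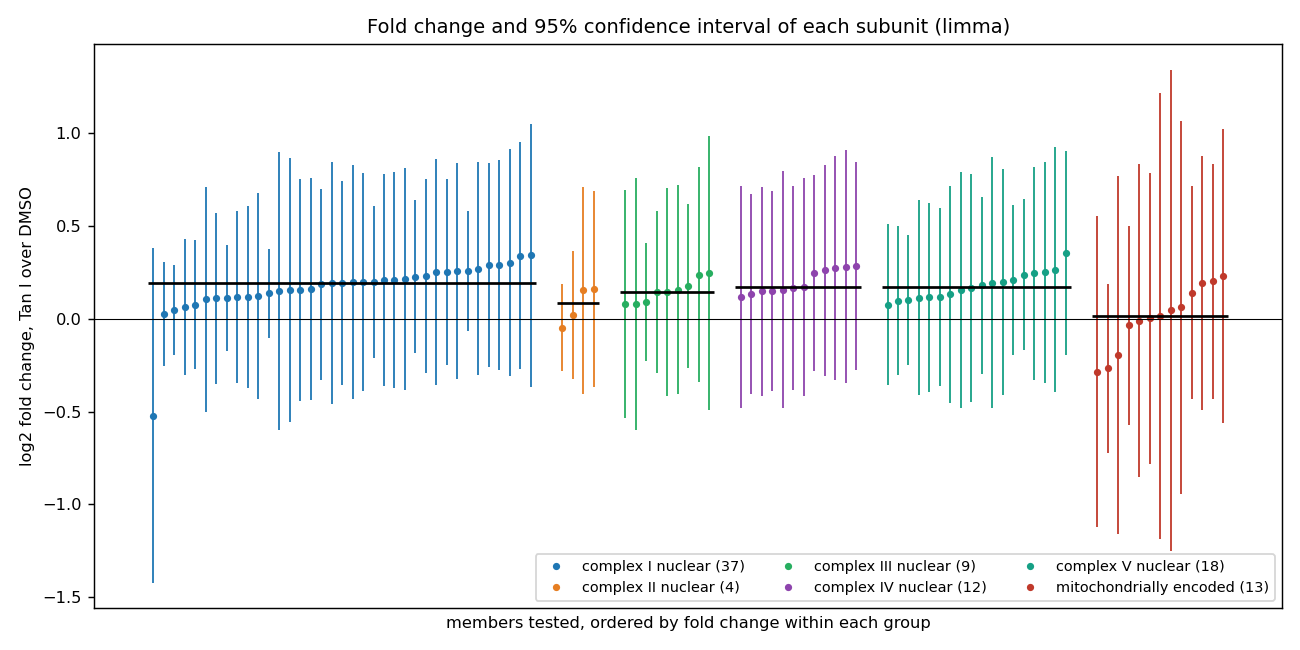
Log2 fold change, Tan I against DMSO (y axis, points) with the 95% confidence interval from limma (vertical lines) for the 80 nuclear and 13 mitochondrial members, ordered within each complex (x axis). Black bars are group medians, from 0.09 in complex II to 0.19 in complex I among the nuclear members and 0.02 in the mitochondrial members, and every interval includes 0.

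Levels could be compared between genes as normalized counts per kilobase of canonical transcript. Among nuclear members the highest in DMSO were UQCRH with 20563 ± 4204 (SD, n = 3), COX4I1 with 18601 ± 3916 and ATP5F1B with 16272 ± 1022, and in Tan I these were 22243 ± 7693, 20524 ± 6477 and 17509 ± 2073. UQCRH was above COX4I1 in 6 of 6 libraries, by a ratio of 1.04 to 1.13, a difference smaller than the spread of either gene between libraries. The rank of UQCRH is uncertain, since reads that also fit UQCRHL may be missing from its count. Among the c ring genes ATP5MC2 led with 11508 ± 2053 per kilobase in DMSO and 12604 ± 3224 in Tan I, against 2100 ± 269 and 2442 ± 471 for ATP5MC3 and 1693 ± 410 and 2171 ± 557 for ATP5MC1. ATP5MC2 was 4.67 to 5.83 times ATP5MC3 within a library, and ATP5MC3 was above ATP5MC1 in 6 of 6 libraries, by a ratio of 1.08 to 1.39. These ratios rest on canonical lengths of 632 bases for ATP5MC2, 2587 for ATP5MC3 and 646 for ATP5MC1. Before division by length the means over the 6 libraries were 7619, 5875 and 1248 normalized counts, respectively. Whether the cells express these transcripts was not tested. Pseudogenes of ATP5MC1 are also listed, and reads that fit both may be missing from its count. In complex II, SDHB (2756 ± 601) and SDHC (2434 ± 107) led in DMSO, above SDHD (1590 ± 356) and SDHA (413 ± 64.5). The low level of SDHA is uncertain, because most of its exon bases are shared with another gene record. SDHB was above SDHC in 5 of 6 libraries, by a ratio of 0.880 to 1.70 over all 6.

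The mitochondrially encoded members ranged from 5203 ± 2547 normalized counts per kilobase in DMSO (SD, n = 3) for MT-CYB to 220366 ± 36655 for MT-ND4. They took 2.55%, 4.01% and 2.73% of all reads in DMSO replicates 1 to 3 and 2.84%, 3.07% and 3.29% in Tan I replicates 1 to 3, while the 80 nuclear members took 0.946%, 1.14% and 1.03% and 0.954%, 1.11% and 1.29%. Exact binomial intervals at 95% cover counting error only and were narrow, for example 3.28% to 3.30% in Tan I replicate 3. The mean mitochondrial share was 3.10% ± 0.794 (SD, n = 3) in DMSO and 3.07% ± 0.227 in Tan I, a difference of -0.03 percentage points that lay far inside the spread. DMSO replicate 2 was above all other libraries, and without it the difference was 0.42 percentage points. Mitochondrial reads per nuclear member read were 2.70, 3.50 and 2.64 in DMSO and 2.97, 2.78 and 2.55 in Tan I.

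**Figure D4:**
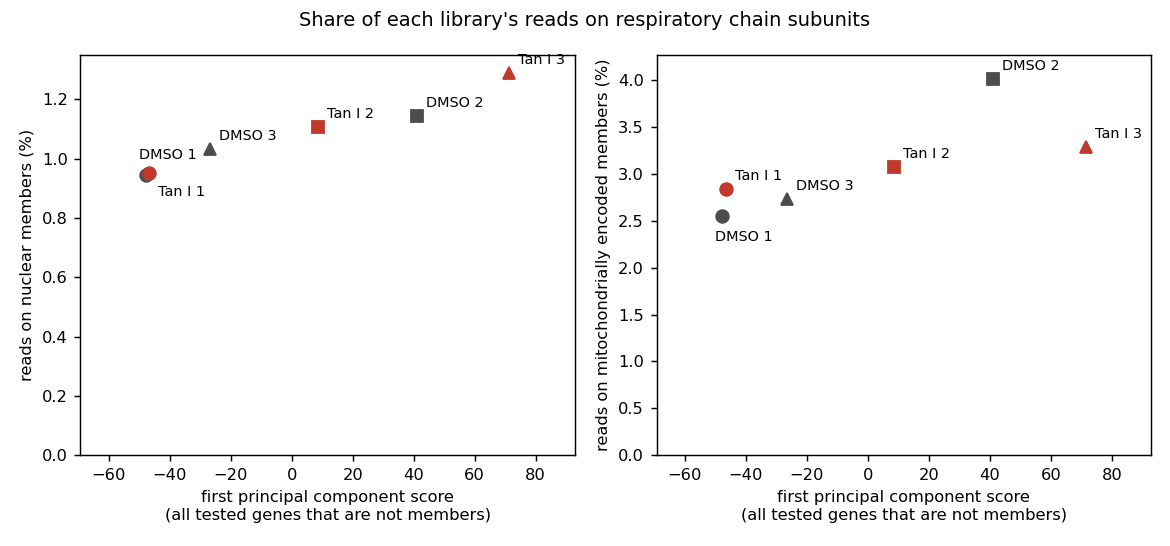
Percent of the reads of a library on the 80 nuclear members (left, y axis) and on the 13 mitochondrially encoded members (right, y axis) against the score of the library on the first principal component of all tested genes that are not members (x axis), DMSO in grey and Tan I in red. The nuclear share goes from 0.946% in DMSO replicate 1 to 1.29% in Tan I replicate 3 in the order of the scores, and DMSO replicate 2 stands out at 4.01% for the mitochondrial share.

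Among the mitochondrial subunits of complex I, MT-ND4 was the most abundant, with 258027, 357936 and 295031 normalized counts in DMSO and 296407, 352268 and 349270 in Tan I, which is 34.0% to 44.8% of the mitochondrial member reads of a library. MT-ND1 measured 20687, 54599 and 24551 against 19235, 23864 and 40212 (-0.20, SE 0.41). MT-ND2 measured 17714, 36963 and 20148 against 21918, 28235 and 31766 (0.19, SE 0.29). In these genes DMSO replicate 2 was the highest library and the Tan I values lay inside the DMSO range, apart from the lowest Tan I value of MT-ND1. MT-ND3 was at 1960, 7650 and 2241 against 2172, 3024 and 5609, and MT-ND6, the only subunit gene on the other strand, at 6478, 19361 and 7772 against 6083, 8810 and 18778. Within DMSO alone MT-ND3 varied by 3.90-fold and MT-ND6 by 2.99-fold.

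MT-ND5 was the single mitochondrial gene whose groups did not overlap, with 29619, 44927 and 30039 normalized counts in DMSO and 29408, 26751 and 29123 in Tan I (log2 fold change -0.27, SE 0.19, limma unadjusted p 0.208, exact permutation p 0.1). The lowest DMSO library stood just above the highest Tan I library. MT-ND4L behaved unlike the rest. It measured 37659, 27138 and 35988 in DMSO and 43122, 30276 and 15558 in Tan I (-0.29, SE 0.36), lowest in the libraries where most other mitochondrial genes were highest. Relative to MT-ND4, with which it shares a messenger RNA, it amounted to 0.146, 0.0758 and 0.122 in DMSO and 0.145, 0.0859 and 0.0445 in Tan I, a 3.28-fold range with overlapping groups.

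Of complex III, MT-CYB (cytochrome b) measured 3925, 9269 and 4618 normalized counts in DMSO and 4380, 5326 and 7232 in Tan I (0.00, SE 0.33). The 3 catalytic and core subunits of complex IV were at 113085, 236938 and 127639 against 118758, 130420 and 215921 for MT-CO1, at 34710, 95642 and 39871 against 37448, 51166 and 78443 for MT-CO2, and at 55245, 117982 and 61909 against 65275, 88053 and 112911 for MT-CO3. In all 4 genes DMSO replicate 2 was highest, DMSO replicate 1 lowest, and every Tan I value lay between them. MT-CO3 had the largest positive value of the mitochondrial members (0.23, SE 0.34).

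MT-ATP6, the subunit a that leads protons to the c ring, measured 21655, 40737 and 23250 normalized counts in DMSO and 25545, 33696 and 36131 in Tan I (0.20, SE 0.27), and MT-ATP8 2975, 4081 and 2749 against 3603, 3716 and 2311 (-0.04, SE 0.23). MT-ATP8 was lowest in Tan I replicate 3, where MT-ATP6 was highest of its group, so that their ratio ranged 2.20-fold over the libraries, from 0.141 in Tan I replicate 1 to 0.0640 in Tan I replicate 3. Nuclear copies of mitochondrial DNA are also listed, and the copy MTATP6P1 on chromosome 1 had a mean of 4636 normalized counts, 15.4% of that of MT-ATP6. The other 6 copies that were looked up reached at most 0.780% of their genes, and further listed copies were not searched for. Since reads with several locations were removed, levels of genes with such copies are uncertain.

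**Figure D5:**
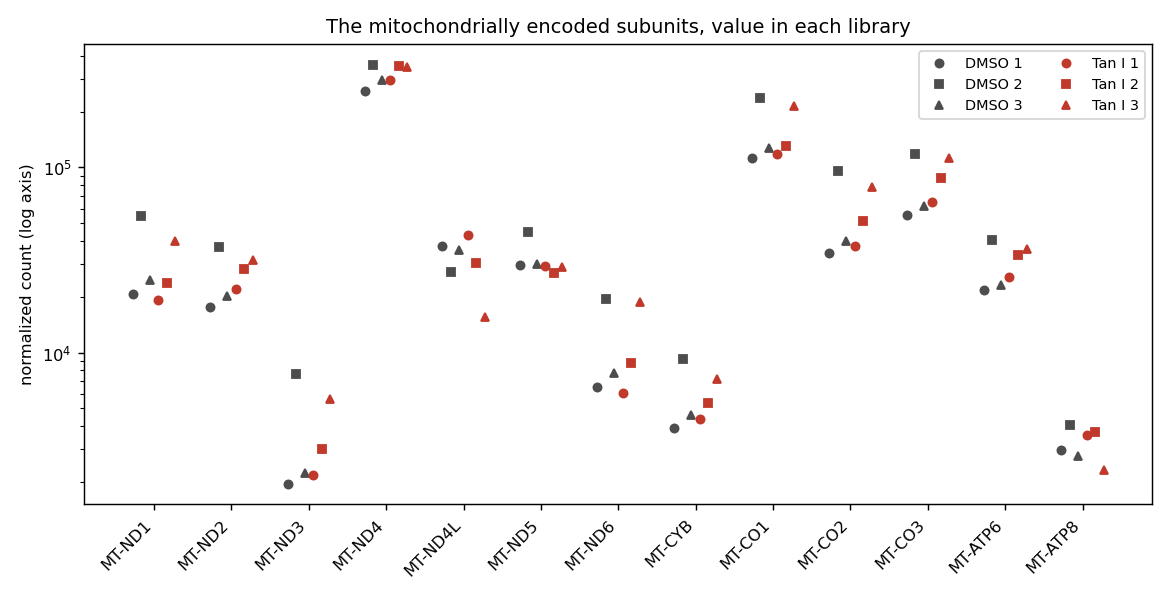
Normalized count (y axis, log scale) of each mitochondrially encoded member (x axis) in each of the 6 libraries, DMSO in grey and Tan I in red. Most genes peak in DMSO replicate 2 with Tan I replicate 3 next, and MT-ND4L is lowest in Tan I replicate 3 (15558).

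The pseudogene members were near the floor of detection. The 3 that were not tested had 6, 8 and 11 reads in DMSO and 9, 11 and 9 in Tan I (UQCRHP1), 6, 2 and 2 against 4, 6 and 18 (ATP5MC1P3), and 13, 2 and 8 against 26, 4 and 0 (ATP5MFP4). The 4 tested had means of 12.6 to 33.2 normalized counts and log2 fold changes from -1.67 to 0.38, none called. The lowest value belonged to ATP5PDP4, with 46, 7 and 23 reads against 27, 6 and 0.

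Genes that work with the subunits were listed from general knowledge. None of them was called at the unadjusted threshold in limma, beside the 2.42% of all genes. Assembly factors of the respiratory chain, 46 of 47 listed, had 34 of 46 above 0 and a median log2 fold change of 0.07. Genes for the transcription, RNA handling and replication of mitochondrial DNA had 20 of 30 above 0 (median 0.04), and electron carriers and citric acid cycle enzymes 14 of 17 (median 0.09). Of 10 regulators of nuclear respiratory genes 8 were listed, with 2 above 0 and a median of -0.06. PPARGC1A, a coactivator of mitochondrial biogenesis, and ESRRG were not listed.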

How the data were processed

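RNA-seq libraries were made from NB4 cells after 3 days in DMSO or in 10 μM Tan I, 3 in each group. Paired-end reads of 150 bases were aligned to GRCh38 with STAR and counted per gene with featureCounts; versions, annotation release and strand setting are not given in the sources used here. As deposited by the authors, the signal values are read counts divided by a size factor per library (0.750 to 1.28, from DESeq2), and 100% of them came out as whole reads within 0.01. Deposited columns of the authors' own comparison (fold change, standard error, Wald statistic, p-values) were not used.

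Levels were tested with limma 3.58.1 (R 4.3.3; lmFit, eBayes with trend) on log2(normalized count + 1) for 16887 genes whose mean reached 10, so that fold changes of low genes are understated. P-values were adjusted by Benjamini-Hochberg over all tested genes. edgeR 4.0.16 and DESeq2 1.42.0 were run on the recovered reads as alternatives; the DESeq2 test that the study describes was thus not the main test. No 2 libraries were copies (chi-square per gene 6.37 for the closest pair, DMSO replicate 1 and Tan I replicate 1). Positions, exons and lengths are from GENCODE release 44, which held 99.6% of the identifiers. The limma step was tested on simulated data.

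The members, the lists and the rule for named genes were chosen with earlier results of these data known. Named were all mitochondrial members, the largest positive and negative fold change of each complex, complex II, the c ring genes, ATP5IF1, COX7A2L and NDUFA4. Other members, such as NDUFB4, NDUFS1, NDUFV2, NDUFA13, UQCRH, CYC1, UQCRFS1, COX4I1 and ATP5F1B, were chosen after their values were seen.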

Additional observations from a re-analysis of the deposited data

How the results depend on the processing

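Other pseudocounts, filters, scalings and tools called 0 members, as reported. Members were called in limma without adjustment in 4 settings: 3 with the scores of the first principal component as a covariate (MT-ND1, MT-ND5 and MT-ND6; 8.86% of all genes), 2 without the 2 libraries highest on that component (MT-ATP8 and MT-ND2; 2.75% of all genes), and 0 to 8 when a single library was left out. In the last case 3 were called without DMSO replicate 2 (ATP5MC1, MT-ATP6 and MT-ND2; 2.72% of all genes) and 8 without Tan I replicate 1, among them ATP5MC1, ATP5IF1, NDUFB4, NDUFA1 and the pseudogene ATP5PDP4, when 8.87% of all genes were called too. The cause was not tested. With adjustment, 0 members were called in each setting, while over all genes 195 were called with the covariate, 16 in DESeq2, 2 without the 2 libraries and 0 otherwise. Leaving out a library moved the median log2 fold change of nuclear members from -0.03 to 0.38 (without Tan I replicate 3, 11 of the 26 named members changed sign), that of mitochondrial members from -0.22 to 0.38, and the difference in the mitochondrial share of reads from -0.30 to 0.42 percentage points. The component covariate raised the calls over all genes from 408 to 1496. The correction for length and GC content and the setting without the 2 libraries were chosen after seeing the data.

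Same-numbered libraries of the groups correlated at 0.75, -0.09 and -0.45 in their deviations from the group mean. Whether they share more than a number is not stated, and 3 such correlations cannot decide it. With the replicate block 0 members and 348 genes were called. For 1 of the 3 DMSO libraries, the Tan I library that correlated best with it had the same number. Depth limits the pseudogene members, which held 0 to 48 reads per library.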

Other observations

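A list of 12 further subunits, isoforms and mitochondrial RNAs had 5 listed and 4 tested, with 2 above 0 and none called. It also held UQCRHL, which the symbol rule already counts as a member. The other 3 tested were MT-RNR1, MT-RNR2 and DMAC2L (log2 fold change -0.09), with MT-RNR1 the only one of them above 0. The tissue isoforms COX4I2, COX6A2, COX6B2, COX7A1, COX7B2 and NDUFA4L2 were not listed. COX8C was listed at 4.89 to 14.7 normalized counts and was not tested.

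The mitochondrial ribosomal RNAs, chosen after their values were seen, did not run in parallel. MT-RNR1, the small ribosomal RNA, measured 41287, 64298 and 51821 normalized counts in DMSO and 48200, 65830 and 97113 in Tan I (log2 fold change 0.39, SE 0.29). MT-RNR2, the large one, measured 294862, 559016 and 347275 against 277443, 339894 and 505906 (-0.09, SE 0.36). The ratio of the small to the large RNA was 0.140, 0.115 and 0.149 in DMSO and 0.174, 0.194 and 0.192 in Tan I, so that the groups did not overlap although those of the single genes did. This ratio was picked out of 5 ratios because of its values, and it has no test here.

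Among the regulators of nuclear respiratory genes, YY1 measured 3436, 3406 and 3346 normalized counts in DMSO and 3615, 4053 and 3594 in Tan I (log2 fold change 0.14, SE 0.11, limma unadjusted p 0.22), without overlap, against 3.92% of all genes in which every Tan I library was the higher. NRF1 (-0.06, SE 0.12) and GABPA (-0.02, SE 0.12) had overlapping groups. COX16, an assembly factor of complex IV, also had groups without overlap, at 15.9, 15.4 and 20.3 against 26.4, 23.2 and 34.7 (0.67, SE 0.31). It had only 16 to 27 reads per library. So did PRORP not overlap, at 223, 237 and 228 against 255, 238 and 268. Every Tan I library was thus higher in 1 of 8 regulators, 1 of 46 assembly factors and 1 of 30 genes that handle mitochondrial DNA and RNA. Among electron carriers and citric acid cycle enzymes this held for 0 of 17. These genes were likewise chosen after their values were seen.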
